A study of Mus musculus with 23 samples.

Results

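Expression of 8 early progenitor and stem-like genes was examined in mice that developed T-ALL (T-cell acute lymphoblastic leukemia). The genes were Kit, Flt3, Cd34, Spi1, Bcl11a, Hhex, Erg and Mef2c. They were picked by gene symbol and all 8 were present among the 24475 rows of the table, 1 row each. RNA was sequenced from 23 tissue samples, 1 library each. The first group was 6 thymus samples from normal C57BL/6 mice. The second was 14 tumor-bearing spleens of Rag2-/-Il2rg-/- BALB/c hosts that had received a wild-type (WT) thymus, and the third was 3 spleens of the same hosts that had received a Notch3 knockout (KO) thymus. In both T-ALL groups a newborn thymus lobe on a C57BL/6 background had been placed under the kidney capsule. The hosts lacked Rag2 and the common cytokine receptor chain Il2rg but kept their own myeloid, erythroid, megakaryocytic and endothelial cells. The spleens were sequenced whole, so each T-ALL library held leukemic donor cells together with host spleen cells. Each leukemia arose in 1 host and is named by its number in the labels, such as T-ALL108. The Notch3 KO allele carried a β-galactosidase gene in its first coding exon, and Notch3 stood at 3.18 ± 0.58 (SD, n = 3) on the log2 scale in Notch3 KO T-ALL against 4.75 ± 0.72 (SD, n = 14) in WT T-ALL and 3.31 ± 0.63 (SD, n = 6) in thymus. The KO and WT T-ALL groups differed (exact permutation p = 0.00441, n = 3 and 14). The KO group and thymus were not told apart (difference -0.12, exact permutation p = 0.774, n = 3 and 6). Which stretch of the transcript the KO reads covered was not examined, so the level does not measure loss of the protein.

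In normal T-cell development these genes belong to the stages before commitment. Kit is the receptor for stem cell factor and Flt3 the receptor for Flt3 ligand. Both mark the thymus-seeding progenitors. Cd34 is a surface sialomucin of stem and progenitor cells and of endothelium. Spi1 encodes PU.1, an ETS-family transcription factor that is shut down at T-lineage commitment and stays high in macrophages and granulocytes. Bcl11a encodes a zinc-finger repressor of lymphoid progenitors and B cells that is also active in erythroid precursors, where it silences embryonic and fetal globin genes. Hhex is a homeobox factor of progenitors, Erg an ETS factor of stem cells, megakaryocytes and endothelium, and Mef2c a MADS-box factor of lymphoid progenitors, B cells and megakaryocytes. High levels of several of them characterize the early T-cell precursor form of human T-ALL. The same genes are made by non-lymphoid cells of a mouse spleen, so markers of those cells were read beside them in every library.

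Promoter sequence is given for the genes on which the results turn and for which RefSeq (GRCm38.p6) supplied a window, because Spi1 and Erg bind the ETS core GGAA and because Spi1, Hhex and Erg varied together. Windows of 250 bases before a transcription start were held for 7 of the 8 genes. Spi1 (chr2:91082374-91115759) had none. The sequences are on the gene's strand, 5′ to 3′, and capitals mark GGAA or its reverse complement TTCC. Hhex lies at chr19:37434841-37440731 on the plus strand, Bcl11a at chr11:24076564-24173558 on the plus strand, and Erg at chr16:95359169-95586600 on the minus strand.
Hhex, chr19:37434591-37434840: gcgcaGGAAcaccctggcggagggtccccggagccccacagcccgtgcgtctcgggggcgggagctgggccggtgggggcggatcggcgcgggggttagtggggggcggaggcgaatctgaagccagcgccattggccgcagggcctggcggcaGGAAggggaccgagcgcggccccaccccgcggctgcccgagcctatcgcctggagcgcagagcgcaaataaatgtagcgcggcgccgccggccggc
Bcl11a, chr11:24080445-24080694: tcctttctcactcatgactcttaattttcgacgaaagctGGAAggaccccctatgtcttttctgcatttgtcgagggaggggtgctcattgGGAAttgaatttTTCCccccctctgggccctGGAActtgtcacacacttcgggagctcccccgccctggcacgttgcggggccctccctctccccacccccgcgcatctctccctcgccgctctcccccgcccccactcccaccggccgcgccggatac
Erg, chr16:95586594-95586843: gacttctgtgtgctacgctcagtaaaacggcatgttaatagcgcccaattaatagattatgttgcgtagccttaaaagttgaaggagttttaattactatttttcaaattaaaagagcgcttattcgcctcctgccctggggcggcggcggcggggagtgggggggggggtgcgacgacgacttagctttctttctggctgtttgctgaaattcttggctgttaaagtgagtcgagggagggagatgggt
The Hhex window held 2 ETS cores, the Bcl11a window 4 and the window at the first Erg start 0. Other Erg starts, at chr16:95530366-95530615 and chr16:95459349-95459598, had 4 and 2. The core occurs on either strand in 93.4% of 32851 such windows, so its presence is no distinction. The erythroid GATA motifs AGATAA and TGATAA, held by 9.99% and 7.94% of windows, were in neither the Hhex nor the Bcl11a window, and the Erg window at chr16:95459349-95459598 held 1 AGATAA. A match or its lack is a description of these letters only.

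The deposited values are log2(scaled RPKM + 1), where RPKM takes account of the length of each transcript, so that the levels of different genes can be compared per length. On this scale 1.00 is a scaled RPKM of 1. All 8 genes were low in thymus. Kit had the highest thymus mean, 1.65 ± 0.24 (SD, n = 6), followed by Spi1 at 1.55 ± 0.48, and the other 6 genes had means between 0.55 and 0.89. Of the 8 genes, 7 passed the filter of the fit, which asked that 3 or more libraries reach a scaled RPKM of 1. Mef2c did not. A single fragment in a 1-kb transcript was worth 0.0204 to 0.119 scaled RPKM, depending on the library. By this measure Spi1 rested on an estimated 18 to 3889 fragments per library, Bcl11a on 19 to 1353 and Kit on 62 to 1141, whereas Hhex reached down to 3, Erg to 6, and Flt3 and Cd34 to 7 fragments. Levels of the last 4 genes in the sparsest libraries were therefore imprecise. The libraries fell into 2 sets by the values of 5 genes, a split read from the values that the labels do not name. The smaller held 2 thymus, 4 WT and all 3 Notch3 KO libraries, and the larger 4 thymus and 10 WT libraries. Set and group were therefore not independent. The mean of the 8 genes was 0.73 and 0.69 in the 2 thymus libraries of the smaller set and 1.02 to 1.10 in the other 4.

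Between WT T-ALL and thymus, Bcl11a and Spi1 were higher in leukemia and the other 5 genes tested did not pass the threshold of an adjusted p of 0.05 (limma, Benjamini-Hochberg over all 11919 genes tested). Thus 2 of 7 members were called, both higher, where 29.3% of all genes were called higher, 22.3% lower and 51.6% in either direction. The share called higher was close to that of all genes, and 0 members were called lower. The median difference of the 8 genes was 0.30 on the log2 scale, against 0.08 over all genes tested. Tissue (spleen against thymus), strain and host cells changed together with leukemia in this comparison, and their contributions cannot be told apart. A lower level in such bulk tissue can mean fewer cells of a type or less RNA per cell, which cannot be told apart either.

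**Figure D1:**
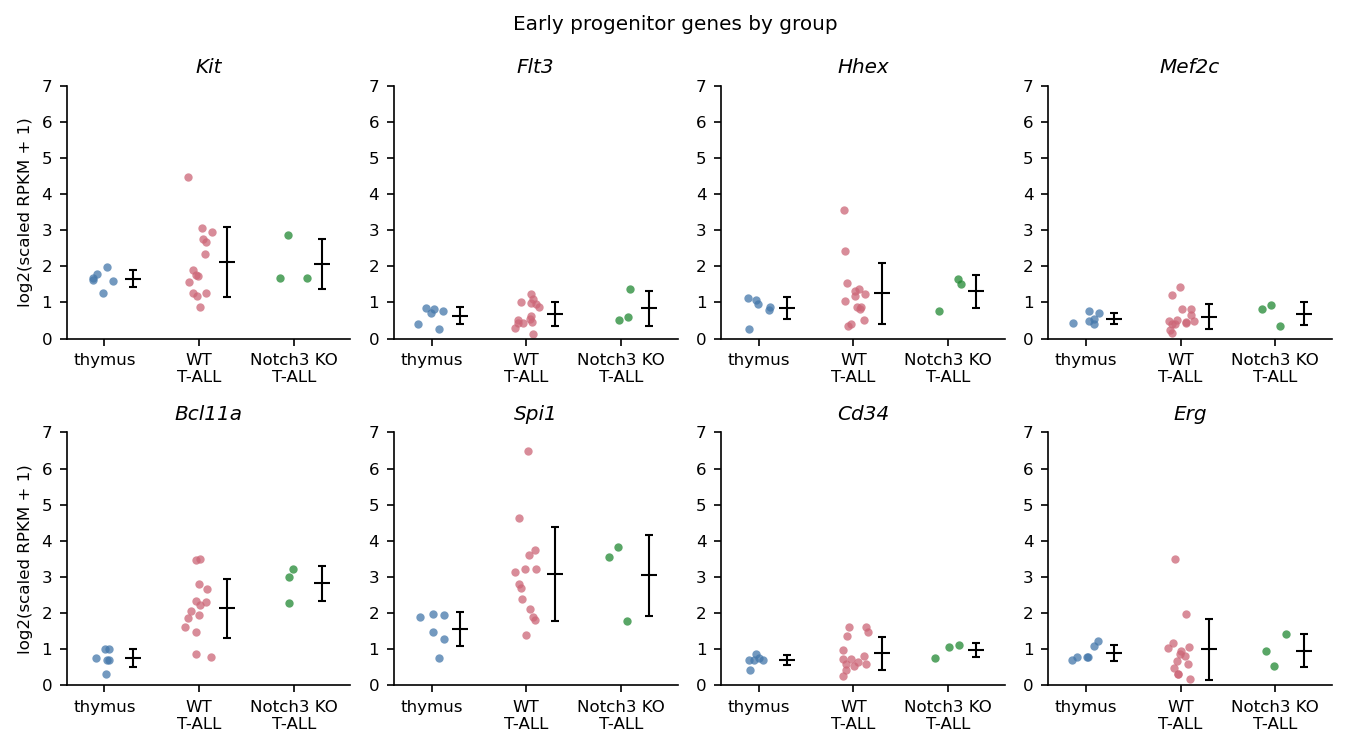
Level of each gene, log2(scaled RPKM + 1), in 6 thymus, 14 WT T-ALL and 3 Notch3 KO T-ALL libraries. Each point is 1 library and the black mark and bar are the group mean and SD; Bcl11a and Spi1 lie mostly above thymus, and single WT T-ALL libraries stand far above the rest for Kit, Hhex, Spi1 and Erg.

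Bcl11a was the gene that most regularly lay above thymus. The thymus libraries ran from 0.32 to 1.01 with a median of 0.72. WT T-ALL ran from 0.77 in T-ALL128 to 3.50 in T-ALL108 with a median of 2.13. The groups overlapped through T-ALL128 and T-ALL36, at 0.77 and 0.86, and the other 12 libraries were above every thymus library. The difference was 1.39 ± 0.32 (SE) on the log2 scale, with a limma adjusted p of 0.000986 and an exact permutation p of 0.00124 (two-sided, n = 14 and 6). It held within each of the 2 sets of libraries, at 1.68 in the smaller (limma adjusted p = 0.0190) and 1.25 in the larger (limma adjusted p = 0.0341).

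Spi1 spanned the widest range. Thymus libraries ran from 0.74 to 1.96 with a median of 1.68, and WT T-ALL from 1.38 in T-ALL36 to 6.49 in T-ALL110 with a median of 2.97. In 11 of 14 leukemias Spi1 was above every thymus library, and T-ALL4, T-ALL5 and T-ALL36 overlapped with thymus. The difference was 1.53 ± 0.52 (SE), with a limma adjusted p of 0.0178 and an exact permutation p of 0.0117 (n = 14 and 6). It did not pass within either set of libraries taken alone, at 1.64 (limma adjusted p = 0.126) and 1.43 (limma adjusted p = 0.0912).

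The receptor Kit ranged widely among the leukemias. Thymus libraries lay between 1.27 and 1.99 (median 1.64), and WT T-ALL between 0.88 in T-ALL36 and 4.47 in T-ALL7 (median 1.83). Of the 14 leukemias 6 were above every thymus library and 4 below every one. The difference in means was 0.47 (95% confidence interval -0.31 to 1.25, limma adjusted p = 0.30). T-ALL7 stood apart at a scaled RPKM of 21.2, against a group median of 2.55.

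The other receptor and surface genes showed no such outlier. Flt3 lay between 0.27 and 0.84 in thymus and between 0.12 in T-ALL110 and 1.24 in T-ALL202 (median 0.59) in WT T-ALL. The difference was 0.05 (95% confidence interval -0.30 to 0.41, limma adjusted p = 0.815). Cd34 lay between 0.42 and 0.86 in thymus and between 0.25 in T-ALL5 and 1.62 in T-ALL14 in WT T-ALL, a difference of 0.19 (95% confidence interval -0.20 to 0.58, limma adjusted p = 0.402). The groups overlapped for both genes: 6 leukemias lay above and 1 below every thymus library for Flt3, and 5 above and 2 below for Cd34.

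Hhex and Erg were highest in T-ALL110 and next highest in T-ALL108. Hhex ran from 0.27 to 1.12 in thymus and from 0.34 in T-ALL4 to 3.56 in T-ALL110 (median 1.11) in WT T-ALL, a difference of 0.41 (95% confidence interval -0.28 to 1.09, limma adjusted p = 0.309). Of the 14 leukemias 7 were above every thymus library and 0 below every one. Erg ran from 0.69 to 1.22 in thymus and from 0.18 in T-ALL5 to 3.49 in T-ALL110 (median 0.83). Its difference was 0.10 (95% confidence interval -0.58 to 0.77, limma adjusted p = 0.818), and 6 leukemias lay below every thymus library while 2 lay above. Mef2c, which was not in the fit, averaged 0.55 ± 0.15 (SD, n = 6) in thymus and 0.61 ± 0.35 (SD, n = 14) in WT T-ALL, with an exact permutation p of 0.721.

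In Notch3 KO T-ALL only Bcl11a passed against thymus, 1 of 7 members, where 21.2% of genes were called higher, 16.3% lower and 37.5% in either direction. This comparison used the same 6 thymus libraries as the one above. All 3 Notch3 KO libraries were in the smaller set of libraries and most thymus libraries in the larger. The comparison is therefore partly one between the sets. Bcl11a was 2.28, 2.99 and 3.21 in Notch3 KO T-ALL 1, 2 and 3, each above every thymus library. The difference was 2.08 ± 0.46 (SE, limma adjusted p = 0.00124), and the exact permutation p of 0.0119 was the smallest that 3 against 6 libraries allow. Spi1 was 3.84, 1.76 and 3.54 in the same order. The first and the third were above thymus and the second was inside its range. The difference of 1.49 ± 0.75 (SE) had a limma adjusted p of 0.123 and an exact permutation p of 0.0476, and it passed, at a limma adjusted p of 0.0128, where the fit held these 2 groups alone. Cd34 (1.04, 1.11 and 0.74) differed by 0.28 (limma adjusted p = 0.436, exact permutation p = 0.0357). Kit was 1.68, 1.67 and 2.88, Flt3 1.39, 0.51 and 0.61, Hhex 1.64, 0.77 and 1.51, Erg 0.93, 0.52 and 1.41, and Mef2c 0.81, 0.33 and 0.94. Notch3 KO T-ALL 2 was the lowest of the 3 for Kit, Flt3, Hhex, Spi1, Erg and Mef2c, the middle one for Bcl11a and the highest for Cd34.

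Between Notch3 KO and WT T-ALL 0 of 7 members were called by limma, where 0.617% of 11677 genes were called (0.591% higher and 0.0257% lower). At an unadjusted p under 0.05 limma again gave 0 of 7, and the exact permutation test 0 of 8. With 3 KO libraries the intervals were wide. The difference of Bcl11a was 0.69 (95% confidence interval -0.27 to 1.66, limma adjusted p = 0.835), that of Spi1 -0.03 (-1.62 to 1.56) and that of Kit -0.05 (-1.21 to 1.11). For Flt3 it was 0.15 (-0.38 to 0.67) and for Cd34 0.09 (-0.50 to 0.68). For Hhex it was 0.06 (-0.95 to 1.06) and for Erg -0.03 (-1.04 to 0.97). The intervals of Kit, Spi1, Bcl11a, Hhex and Erg included a difference of 1 on the log2 scale in at least 1 direction. Within the smaller set of libraries Notch3 KO differed from WT T-ALL by 0.62 ± 0.34 in Bcl11a and by 0.39 ± 0.63 in Spi1 (limma adjusted p = 0.582 and 0.897).

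How far host spleen cells may supply these transcripts was read from marker genes. H2-Ea-ps was used as a mark of host antigen-presenting cells: the gene is silent in C57BL/6 mice, the background of the donor, and active in BALB/c mice, the background of the host. Thymus libraries had 0.00 to 0.28. WT T-ALL ran from 2.42 in T-ALL5 to 6.29 in T-ALL110, and the Notch3 KO libraries had 3.72 to 5.06. It was above thymus in 14 of 14 WT libraries (difference 3.87, exact permutation p = 2.58e-05, the smallest possible for n = 14 and 6). RNA of host antigen-presenting cells was thus detected in each T-ALL library.

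Most marker lists were higher in WT T-ALL, where 29.3% of all genes tested were called higher and 22.3% lower. In WT T-ALL against thymus 9 of 10 macrophage genes rose and 0 fell, led by Cd5l (difference 3.62 ± 0.35, SE) and Vcam1 (2.63 ± 0.55). All 10 neutrophil and granulocyte-precursor genes rose, led by Ngp (4.34 ± 0.85) and S100a9 (3.96 ± 0.89). So did 9 of 10 erythroid genes, among them Slc4a1 (5.59 ± 0.56), the red cell anion exchanger, and Alas2 (4.94 ± 0.70), the first enzyme of erythroid heme synthesis. Of the megakaryocyte genes 8 of 9 tested rose, led by the platelet chemokines Ppbp (3.09 ± 0.53) and Pf4 (2.95 ± 0.50). Of 6 endothelial genes tested 5 rose and 1 fell, led by Egfl7 (2.21 ± 0.24), and of 4 mast cell and basophil genes 2 rose, Mcpt8 (2.04 ± 0.68) and Hdc (1.64 ± 0.49). Of 3 stromal genes tested Col1a2 and Pdgfrb rose. The stromal genes Col1a1, Col3a1, Dcn, Lum and Pdgfra were below the filter. Their WT T-ALL means were 0.30, 0.14, 0.21, 0.04 and 0.05, against 3.90 for Col1a2 and 5.04 for Pdgfrb. Whether Col1a2 and Pdgfrb came from stroma was not tested. The dendritic cell list was mixed: Zbtb46 and Clec9a rose among 7 genes tested, 0 fell, and the median difference of its 10 genes was -0.13. Without passing, Itgax (0.71) and Batf3 (0.46) lay higher, and Ly6d (-1.24), H2-Ab1 (-0.80) and Ccdc88a (-0.58) lower. Ly6d had a thymus mean of 8.45, far above the rest of the list. In Notch3 KO T-ALL against thymus 10 of 10 macrophage and 10 of 10 erythroid genes rose, with 8 of 9 megakaryocyte, 5 of 6 endothelial and 3 of 3 stromal genes tested, but 4 of 10 neutrophil genes, 2 of 7 dendritic cell genes and 0 of 4 mast cell and basophil genes. Of all genes tested 21.2% were called higher there.

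The scale of these signals was large beside the members. The summed scaled RPKM of the 10 neutrophil genes ran from 57.6 to 533 across thymus libraries, from 642 to 84771 across WT leukemias and from 204 to 7618 across Notch3 KO leukemias. The medians were 283, 2218 and 6734. The upper WT end was T-ALL110, where S100a8 and S100a9 alone stood at 26767 and 40667. The 10 macrophage genes summed, in the same order, to 9.11 to 65.2, 27.0 to 434 and 305 to 461, and the 10 erythroid genes to 4.72 to 96.1, 53.8 to 1646 and 600 to 3088. The 8 members together summed to 5.37 to 9.92, 4.82 to 120 and 14.5 to 30.8. In contrast, 4 of 5 B-cell genes tested fell in WT T-ALL, led by Cd79b (-2.60 ± 0.26) and Cd79a (-1.68 ± 0.15), and the list mean was 0.97 to 1.48 in thymus and 0.15 to 0.47 in WT T-ALL. B cells, which express Bcl11a, Mef2c and Spi1, thus had higher marker levels in the thymus controls. The T-cell list stayed high, at a mean of 7.97 to 8.27 in thymus and 7.03 to 8.09 in WT T-ALL, although 4 of 8 genes fell, led by Cd247 (-1.53 ± 0.21).

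**Figure D2:**
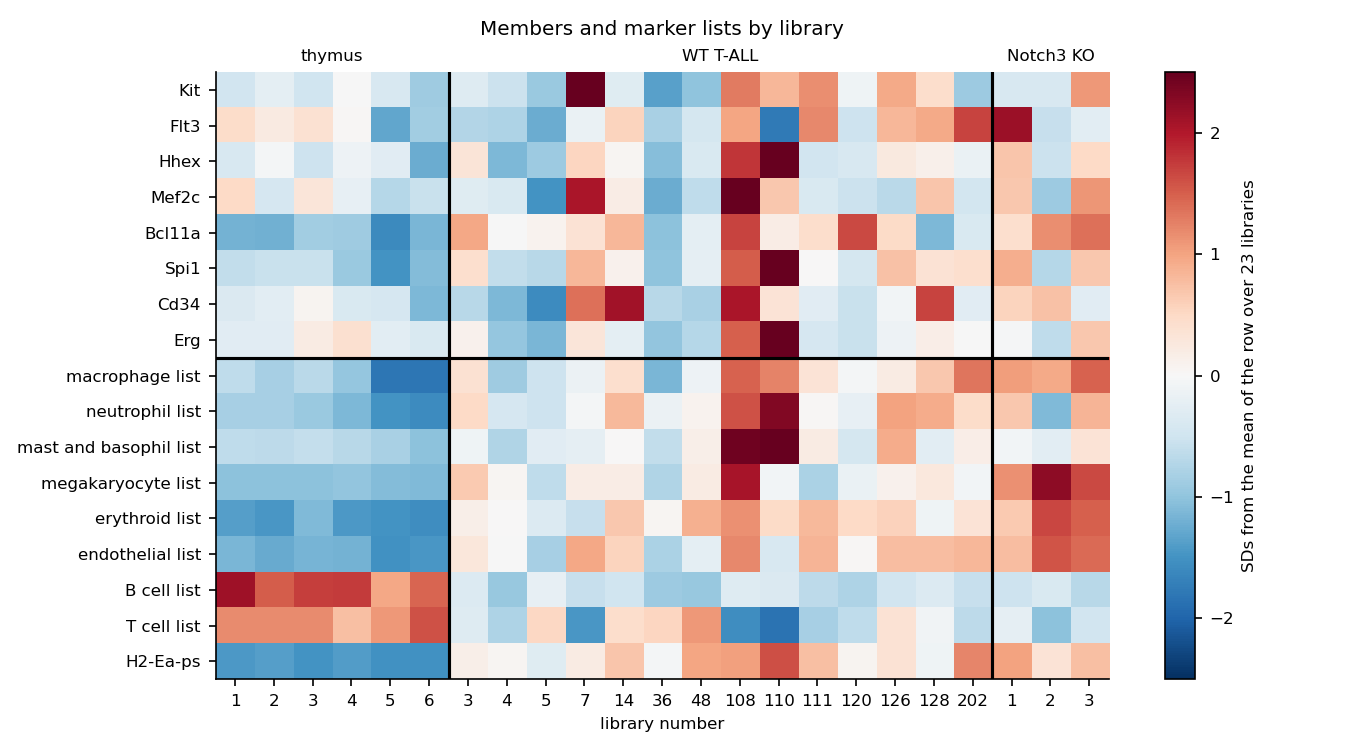
Members (upper rows) and marker list means (lower rows) in each library, as SDs from the mean of the row over 23 libraries, with thymus, WT T-ALL and Notch3 KO T-ALL libraries by number. T-ALL108 and T-ALL110 are high for Spi1, Hhex, Erg and the neutrophil and mast cell lists, and the erythroid and H2-Ea-ps rows are low in each thymus library.

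Among the 14 WT leukemias several members varied together. Spi1, Hhex and Erg rose and fell together, with Pearson r of 0.98 for Hhex with Spi1, 0.98 for Hhex with Erg and 0.97 for Spi1 with Erg (28 pairs computed, permutation p = 1e-05 for each, the smallest that 1e+05 permutations give). Spearman rho was 0.96, 0.93 and 0.95 for the same pairs (permutation p = 1e-05, 2e-05 and 1e-05), and r was 0.93 for each pair without the 2 libraries farthest from the median. Bcl11a had r of 0.36 or less with each other member. Mef2c and Cd34 had r of 0.81 and rho of 0.71 (permutation p = 0.00034 and 0.00615), and Kit and Mef2c r of 0.76 and rho of 0.67 (permutation p = 0.00232 and 0.0106). Other pairs crossed these groups, with rho of 0.82 for Mef2c with Erg (r = 0.60), 0.73 for Cd34 with Erg (r = 0.45) and 0.72 for Kit with Spi1 (r = 0.58). Permutation p was 0.00053, 0.00385 and 0.00488 for rho, and 0.0333, 0.0941 and 0.0346 for r. These values describe how bulk libraries vary and share any difference in cell makeup.

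The same libraries were extreme for several members. T-ALL108 was among the highest 3 of 14 for all 8 members and was the highest for Bcl11a and Mef2c. T-ALL110 was the highest for Hhex, Spi1 and Erg and the lowest for Flt3. At the other end T-ALL36 was among the lowest 3 for 7 members, as was T-ALL5. T-ALL108 had the highest macrophage list mean of WT T-ALL, 5.07, and T-ALL110 the highest neutrophil mean, 10.45. T-ALL36 had the lowest macrophage mean, 1.69, inside the thymus range of 0.82 to 2.35, and there Spi1, at 1.38, was also inside the thymus range. T-ALL5 had the lowest neutrophil mean, 4.08.

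Spi1, Hhex and Erg followed the myeloid lists. In a limma fit over 11476 genes across WT T-ALL, 9 of 77 pairs of a tested member and a list were called, and these were Spi1, Hhex and Erg with the neutrophil, mast cell and basophil, and macrophage lists. All 9 slopes were positive, where 5.99%, 6.36% and 3.38% of genes had positive called slopes on these lists. With the neutrophil list r was 0.90 for Spi1 (limma adjusted p = 6.3e-05), 0.91 for Hhex (limma adjusted p = 0.000184) and 0.89 for Erg (limma adjusted p = 0.000342). Permutation p was 3e-05, 3e-05 and 4e-05, and Spearman rho was 0.81, 0.82 and 0.79 (permutation p = 0.00084, 0.00082 and 0.0014). Within the larger set of 10 libraries r was 0.95, 0.94 and 0.92. The smaller set held 4 WT libraries, too few for a value.

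The relation with the neutrophil list was weaker without T-ALL108 and T-ALL110. Without them r was 0.70 for Spi1, 0.71 for Hhex and 0.71 for Erg. In the fit 0 of 77 pairs passed once the 2 libraries farthest from the median of the list concerned were left out, which were these 2 for the neutrophil and the mast cell and basophil lists and others for most lists. The slopes on the macrophage list were as large without T-ALL36 and T-ALL108 (1.01 against 0.99 for Spi1, 0.62 against 0.61 for Hhex and 0.67 against 0.60 for Erg), while those on the neutrophil list went from 0.65 to 0.45, from 0.42 to 0.24 and from 0.42 to 0.20. With the macrophage list r was 0.77 for Spi1, 0.73 for Hhex and 0.71 for Erg over 14 libraries (permutation p = 0.00059, 0.00152 and 0.00098), rho was 0.71, 0.68 and 0.76 (permutation p = 0.00575, 0.01 and 0.00243), and r was 0.68, 0.64 and 0.67 without T-ALL36 and T-ALL108. On ranks 0 of 77 pairs passed. With H2-Ea-ps Spi1 had r of 0.69 and rho of 0.64 (permutation p = 0.00488 and 0.0172), and 0.49 without T-ALL110 and T-ALL202.

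**Figure D3:**
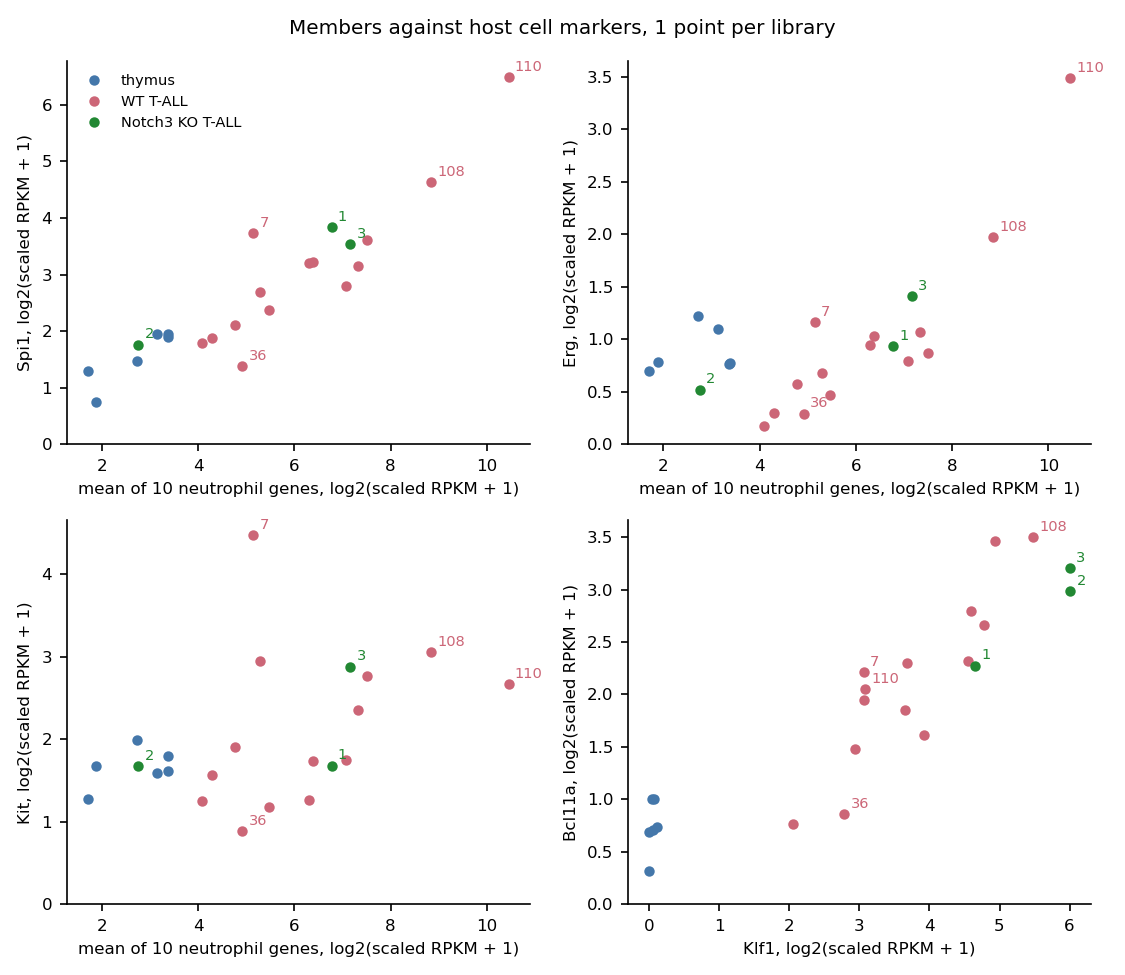
Spi1, Erg and Kit against the mean of 10 neutrophil genes, and Bcl11a against Klf1, each as log2(scaled RPKM + 1), 1 point per library. Spi1 and Erg climb with the neutrophil mean up to T-ALL110, Kit peaks in T-ALL7 at a middle neutrophil level, and Bcl11a climbs with Klf1 through both T-ALL groups.

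The Notch3 KO T-ALL libraries also differed in the neutrophil mean. The neutrophil mean was 6.77, 2.76 and 7.16 in Notch3 KO T-ALL 1, 2 and 3, and that of the second was inside the thymus range of 1.70 to 3.38. This was the library in which Spi1 was inside the thymus range. All 3 KO libraries were in the smaller set of libraries. The thymus libraries of that set, 5 and 6, had neutrophil means of 1.88 and 1.70, both below the second KO library. The macrophage mean of Notch3 KO T-ALL 2 was not low, since the 3 KO libraries had 4.40 to 5.09. No WT T-ALL library had a neutrophil mean inside the thymus range, the lowest being 4.08. With 3 KO libraries no relation was tested.

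Bcl11a varied with erythroid precursor genes. Its r with the neutrophil list was 0.17 and with the macrophage list 0.29 (permutation p = 0.562 and 0.308, rho 0.22 and 0.27, permutation p = 0.443 and 0.342). With the mean of the whole erythroid list r was 0.44 and rho 0.48 (permutation p = 0.119 and 0.0887), but the 10 genes of that list differed, from 0.03 for the globin Hbb-bt to 0.89 for Klf1, the master transcription factor of red cell precursors. This split was noticed after the values were seen. Epor, the erythropoietin receptor, had r of 0.83, and Ermap, an erythroid membrane protein, 0.88. For Klf1 rho was 0.89 (permutation p = 1e-05 for r, the smallest possible, and 5e-05 for rho, unadjusted, over 80 pairs of a member and an erythroid gene). Without T-ALL108 and T-ALL128 r was 0.80, and within the larger set of 10 libraries 0.92. For the other 7 members the highest r with any of the 10 erythroid genes was 0.52.

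Klf1 was 0.00 to 0.11 in thymus. It ran from 2.06 in T-ALL128 to 5.48 in T-ALL108 among WT leukemias, and the Notch3 KO libraries had 4.65, 6.01 and 6.00. The libraries in which Bcl11a did not exceed thymus, T-ALL128 and T-ALL36, had the lowest Klf1 values, 2.06 and 2.79. Those with the most Bcl11a, T-ALL108 and T-ALL120, had the highest, 5.48 and 4.94. Of the Notch3 KO libraries the first was lowest in both Klf1 and Bcl11a. In thymus Bcl11a was present at 0.32 to 1.01 with Klf1 at or near 0.

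Kit followed no host list in the fit. Its r was 0.33 with the neutrophil list (permutation p = 0.244, rho 0.46 with permutation p = 0.097), 0.33 with the macrophage list and -0.06 with the erythroid list. Its largest values were r of 0.64 with the endothelial list (permutation p = 0.0121, rho 0.74 with permutation p = 0.00334) and -0.65 with the T-cell list (permutation p = 0.0102, rho -0.72 with permutation p = 0.00517), and neither passed in the fit over all genes. T-ALL7, with the highest Kit, had a neutrophil mean of 5.14 (WT median 5.88), a mast cell and basophil mean of 0.70 (median 0.83) and an endothelial mean of 1.45 (median 1.27), the second highest of the group. Its T-cell mean was 7.17 (median 7.52). The part of any of these cells in its Kit level was not tested.

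Flt3 had its highest r with the endothelial list, 0.83 (permutation p = 0.00042), with rho of 0.86 (permutation p = 0.00019) and 0.83 without T-ALL5 and T-ALL36. This pair did not pass in limma (adjusted p = 0.668). Mef2c had r of 0.75 with the megakaryocyte list (rho 0.63, permutation p = 0.003 and 0.0181), falling to 0.53 without T-ALL108 and T-ALL111. Cd34 had r of 0.67 with the endothelial list (rho 0.66, permutation p = 0.00996 and 0.0123), and 0.58 without T-ALL5 and T-ALL36. Mef2c was not in the fit.

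A marker list mean was also entered into the fit of WT T-ALL against thymus. With the neutrophil mean as a term, the difference of Spi1 went from 1.53 to -0.63 ± 0.33 (SE, limma adjusted p = 0.154), and Erg (-1.15, limma adjusted p = 0.00286) and Hhex (-0.90, limma adjusted p = 0.0101) were called lower than thymus. Bcl11a kept a difference of 1.19 ± 0.44 (limma adjusted p = 0.0462). With the macrophage mean Spi1 was at -0.12 ± 0.47 and Bcl11a at 0.97 ± 0.41 (limma adjusted p = 0.870 and 0.0770). With the erythroid mean Bcl11a was at 0.08 ± 0.60 (limma adjusted p = 0.954) and Spi1 at 0.85 ± 1.09 (limma adjusted p = 0.665). The erythroid means of the groups did not overlap, at 0.37 to 1.35 in thymus and 2.54 to 6.39 in WT T-ALL, and neither did the neutrophil means, at 1.70 to 3.38 and 4.08 to 10.45. Each of these terms therefore stands for the group as well as for the cells it marks. In Notch3 KO T-ALL the difference of Bcl11a from thymus was 0.05 ± 0.91 with the erythroid mean and 1.92 ± 0.52 with the neutrophil mean. Such terms describe shared variation, and the share of each transcript that came from host cells was not measured.

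**Figure D4:**
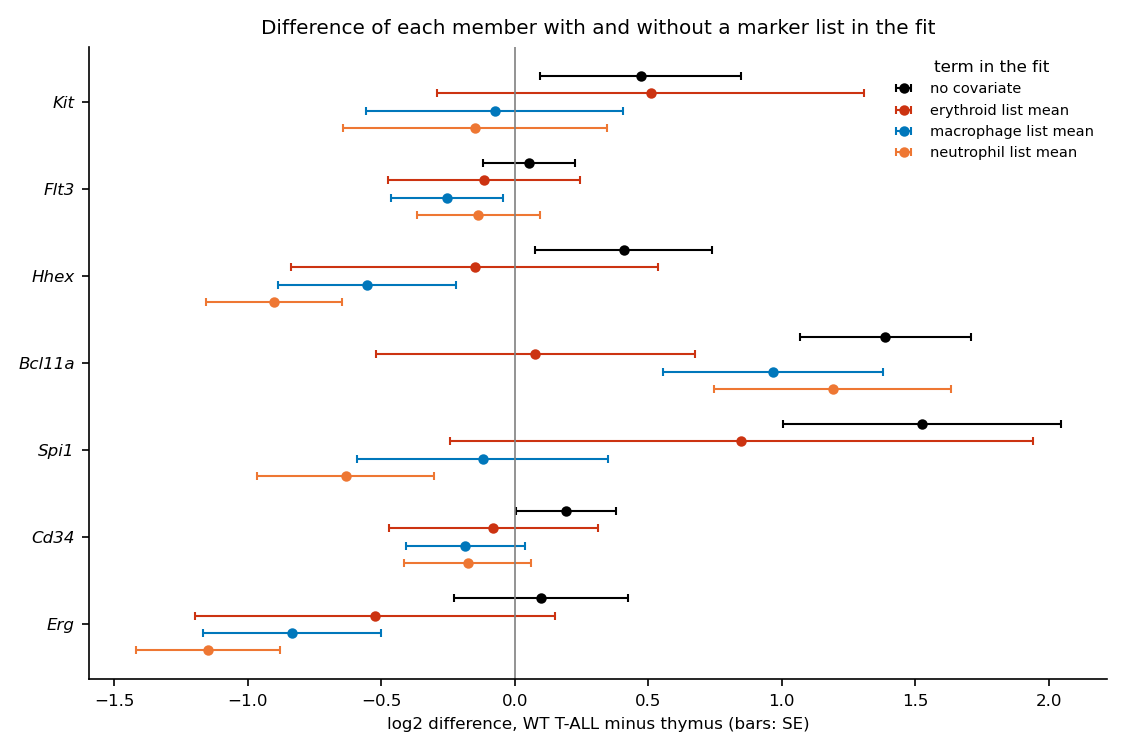
Difference between WT T-ALL and thymus on the log2 scale for the 7 members in the fit, with no marker term and with the mean of the erythroid, macrophage or neutrophil list as a term; bars are SE. Each member other than Bcl11a moves below 0 with the neutrophil and with the macrophage term, and Bcl11a is nearest 0, at 0.08, with the erythroid term.

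Genes nearest in pattern to each member across the 14 WT leukemias were listed for the members with a mean scaled RPKM of at least 1. For Bcl11a they were Gfi1b (r = 0.96), a repressor of erythroid and megakaryocytic cells, Cpox (0.95), an enzyme of heme synthesis, and Slc26a1 (0.95). For Spi1 they were B430306N03Rik, Fes and Myadm, all at 0.99, and for Erg Il18rap and Olr1, also at 0.99. For Hhex they were B430306N03Rik and Mtus1, each at 0.99. For Kit the nearest were lower, Gdpd5 at 0.86, E2f2 at 0.85 and Pafah2 at 0.84. These were among the highest of 11041 genes compared over 14 libraries and are given as a description.

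Among 24 further stem and progenitor genes, 18 were tested and 9 rose and 5 fell in WT T-ALL. Over all genes tested 29.3% were called higher and 22.3% lower. The risers included Lmo2 (3.28 ± 0.32), Tal1 (3.09 ± 0.37), Gfi1b (2.30 ± 0.37) and Nfe2 (2.17 ± 0.44), transcriptional regulators that erythroid and megakaryocytic cells share with stem cells. Those that fell included Slamf1 (-1.99 ± 0.23), a SLAM-family receptor, Hoxa7 (-1.24 ± 0.09) and Mycn (-0.91 ± 0.12), and Myb fell by 1.00 ± 0.19. The stem cell genes Mecom, Hlf, Meis1, Procr, Hoxa9 and Hoxa10 were below the filter, with WT T-ALL means of 0.03 to 0.44. In Notch3 KO T-ALL 7 rose and 5 fell against the same thymus libraries, where 21.2% of all genes were called higher and 16.3% lower. Between the T-ALL groups 0 of 16 tested were called, where 0.617% of all genes were. The median difference of the 24 genes in WT T-ALL was 0.22, against 0.08 over all genes tested.

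Of the ligands, Flt3l fell by 1.00 ± 0.17 in WT T-ALL (limma adjusted p = 3.48e-05), and the Kit ligand Kitl, below the filter, averaged 0.06 in thymus and 0.42 in WT T-ALL. Among 6 T-lineage commitment genes 3 fell and 0 rose in WT T-ALL, where 22.3% of all genes were called lower and 29.3% higher. Those that fell were Bcl11b (-1.31 ± 0.17), which closes the progenitor program in normal thymocytes, Tcf7 (-0.84 ± 0.18) and Ets1 (-0.83 ± 0.15). Gata3 (0.07), Lef1 (0.59) and Tcf12 (-0.13) did not pass. In group means all 6 stayed well above the members, with WT T-ALL means between 5.06 and 9.08 on the log2 scale per length. Single libraries overlapped: Spi1 at 6.49 in T-ALL110 was above the highest WT T-ALL values of Bcl11b (6.25) and Gata3 (6.31).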

How the data were processed

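RNA of 6 normal thymus samples, 14 WT T-ALL spleens and 3 Notch3 KO T-ALL spleens was sequenced as stranded mRNA libraries in paired-end reads. The authors mapped them with OSA in ArrayStudio, against transcripts of mm10, and quantified genes in the same software. The deposited values are log2 values, made by the authors from RPKM after scaling that sets the 75th percentile of every library at 10, with 1 added before the logarithm. The values are not counts. Relative depth was estimated from the step between low values of single-exon genes.

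Samples were grouped by their labels. Nothing in the labels pairs numbers across groups, and p-values measure the spread between these mice. Genes that reached a scaled RPKM of 1 in 3 or more of the fitted libraries were tested with limma 3.58.1 (R 4.3.3; lmFit, eBayes with trend and robust). Both comparisons with thymus came from a fit of all 3 groups and Notch3 KO against WT T-ALL from a fit of the T-ALL groups. Adjusted p is Benjamini-Hochberg over all genes tested, at a threshold of 0.05, two-sided. Single values were compared by exact permutation tests, two-sided, and correlations by 1e+05 permutations. The mean log2 value of a marker list served as its score. Differences on this scale understate the change of low genes. The fit was tested on simulated data.

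The members and marker lists were chosen with earlier results of these data known. Genes named were all 8 members and, from each other list, up to 4 with the largest called difference, with the 3 genes closest in pattern to each member. Some genes that this rule names are not reported here. The library sets, the neutrophil term and the removal of T-ALL108 and T-ALL110 together were chosen after seeing the data. Alternatives were other offsets and filters, quantile normalization, marker terms, a replicate block and leaving out each library.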

Additional observations from a re-analysis of the deposited data

How the results depend on the processing

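Leaving out 1 library at a time gave 2 members called in WT T-ALL against thymus, 1 in Notch3 KO T-ALL against thymus and 0 between the T-ALL groups each time. Both offsets, both filters and quantile normalization gave the same 2, 1 and 0. Against thymus 0 members were called in either T-ALL group with the macrophage or the erythroid mean as a term. With the neutrophil mean 3 were called in WT T-ALL (Bcl11a higher, Hhex and Erg lower) and 2 in Notch3 KO T-ALL (Bcl11a higher, Erg lower). Fitting Notch3 KO T-ALL and thymus alone gave 2. Within either library set 1 was called in WT T-ALL, and of the pairs of member and marker list 0 of 77 were called without the farthest 2 libraries or on ranks. The cause of these changes was not tested.

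Sample numbers did not pair the libraries: correlations of same-numbered libraries ran from -0.24 to 0.13 for WT T-ALL and from -0.03 to 0.15 for Notch3 KO T-ALL with thymus. With a replicate block 1 member was called in each (Bcl11a), and the WT T-ALL differences of Kit, Flt3, Hhex, Cd34 and Erg were -0.38, -0.17, -0.21, -0.27 and -0.55. In that fit a library whose number occurs only once adds nothing to the difference. The WT T-ALL values therefore rested on T-ALL3, T-ALL4 and T-ALL5. No paired analysis was possible between the T-ALL groups because they share 1 number.

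Changes of sign concerned mostly values that were not called. In WT T-ALL against thymus the values were, for Flt3, Hhex, Cd34 and Erg with the erythroid mean, -0.12, -0.15, -0.080 and -0.52; for Kit, Flt3, Hhex, Spi1, Cd34 and Erg with the macrophage mean, -0.075, -0.25, -0.55, -0.12, -0.18 and -0.83, and with the neutrophil mean, -0.15, -0.14, -0.90, -0.63, -0.18 and -1.15. Flt3, Cd34 and Erg had -0.13, -0.012 and -0.11 under quantile normalization. Erg had -0.061 and -0.14 with offsets of 0.1 and 0.01, -0.072 within the smaller library set and -0.19 without T-ALL108 and T-ALL110. Flt3 within the larger set had -0.0024. Leaving out 1 library gave -0.021 to 0.10 for Flt3 and -0.094 to 0.17 for Erg.

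In Notch3 KO T-ALL against thymus Flt3, Hhex, Cd34 and Erg had -0.061, -0.40, -0.14 and -0.90 with the erythroid mean. Kit, Flt3, Hhex, Spi1, Cd34 and Erg had -0.50, -0.32, -1.16, -1.29, -0.36 and -1.51 with the macrophage mean. Kit, Hhex, Spi1, Cd34 and Erg had -0.076, -0.59, -0.24, -0.015 and -0.93 with the neutrophil mean. Flt3, Cd34 and Erg had -0.079, -0.037 and -0.25 under quantile normalization. Leaving out 1 library gave -0.078 to 0.36 for Flt3 and -0.16 to 0.28 for Erg.

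Between Notch3 KO and WT T-ALL Hhex, Bcl11a and Cd34 had -0.25, -0.020 and -0.044 with the erythroid mean. Flt3, Hhex and Cd34 had -0.032, -0.68 and -0.19 with the macrophage mean, and Kit, Spi1 and Erg 0.073, 0.40 and 0.23 with the neutrophil mean. Hhex and Cd34 had -0.069 and -0.025 under quantile normalization. Erg had 0.13 and 0.20 with the offsets of 0.1 and 0.01, and Kit 0.0045 with the latter. Spi1 and Erg had 0.39 and 0.29 both with the library set as a term and within the smaller set. Kit, Spi1 and Erg had 0.071, 0.38 and 0.26 without T-ALL108 and T-ALL110. Leaving out 1 library gave -0.45 to 0.15 for Kit, -0.13 to 0.31 for Flt3, -0.11 to 0.32 for Hhex, -0.43 to 0.61 for Spi1 and -0.26 to 0.19 for Erg.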

Other observations

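Rag2, which makes the recombinase needed to rearrange T-cell receptor genes and is deleted in the host, was 6.21 to 6.79 on the log2 scale in thymus. It ran from 1.00 in T-ALL120 to 5.98 in T-ALL14 in WT T-ALL, and was 1.08, 5.56 and 2.36 in the Notch3 KO libraries. T-ALL7, where Kit was highest, had 1.63. Il2rg, also deleted in the host, ran from 5.96 to 7.29 among WT leukemias, below the thymus libraries at 7.31 to 7.74.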
